A study of Mus musculus with 10 samples.

Results

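The 40 genes described here code for the transporters and enzymes that take up, activate and oxidise fatty acids, carry butyrate into the cell and make or use ketone bodies. They were chosen by gene symbol from knowledge of the pathway. All 40 had an Ensembl ID in the deposited table of 33632 gene IDs, and all 40 were among the 14963 genes that passed the filter on low counts. RNA sequencing was done on colon crypts, the glands of the large intestine that hold its stem cells, in 10 libraries. The 5 CKO libraries carried Lgr5-EGFP-IRES-CreERT2/+;Sox21fl/fl, in which the Lgr5 locus drives EGFP, a green marker, and a Cre recombinase that tamoxifen switches on, while both Sox21 alleles are floxed, that is, flanked by sites that Cre cuts. The 5 flox libraries carried Sox21fl/fl without the Cre. All 10 came from mice with a normal liver on a normal diet, so both groups share the floxed alleles, diet and liver state. The labels give no age, sex, tamoxifen schedule or time of collection, and do not say whether each library is a separate mouse. The p-values therefore reflect library-to-library spread, which may be technical. Cre from this locus acts in Lgr5-positive stem cells, whose progeny inherit the deletion, the allele is known to be silent in part of the crypts, and only the CKO group carries the altered Lgr5 allele. Sox21 RNA stood at 5.34 ± 1.94 CPM in CKO and 4.04 ± 1.8 CPM in flox (SD, n = 5 each), so the libraries labelled CKO did not have less of it. The labels do not say which exons Cre removes, and a count over the whole gene need not read the deletion. CPM are a gene's reads relative to the TMM-adjusted total of its library.

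Colonocytes draw much of their energy from butyrate, a short-chain fatty acid made by gut bacteria. Butyrate enters through proton-coupled and sodium-coupled monocarboxylate transporters, is activated to its coenzyme A ester and is oxidised in mitochondria. Longer fatty acids are activated by acyl-CoA synthetases, pass the inner mitochondrial membrane as carnitine esters and go through repeated rounds of dehydrogenation, hydration, a second dehydrogenation and thiolysis. Electrons from the first step reach the respiratory chain through the electron transfer flavoprotein. Peroxisomes shorten very long and branched chains, and ketone bodies are formed from or returned to acetyl-CoA.

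Total counts ran from 18926634 to 23642415 in CKO and from 21414122 to 23407565 in flox. Mitochondrially encoded genes took 4.3% to 11.8% of counts in 8 libraries, but 26.5% in flox 1 and 29.3% in flox 4, and flox 1 and flox 4 also lay farthest out on the first principal component. CKO 5 stood apart in another way: of 10763 genes with at least 2 CPM in the other 9 libraries, 49 lay in CKO 5 more than 4-fold under the next lowest value, among them Acaa1b and Pdk4. The same count was 0 to 8 in each of the other libraries. Summed levels of 5 epithelial markers were 10811 to 19049 CPM in CKO and 14822 to 23704 CPM in flox, and those of 10 colonocyte markers 6123 to 16494 CPM in CKO and 11263 to 16918 CPM in flox. The 8 crypt base and cycling markers summed to 399 to 547 CPM in CKO and 305 to 603 CPM in flox. Of these 8, 6 had positive and 2 negative log2 fold changes, with all libraries and without flox 1 and flox 4. Summed goblet cell markers were 13524 to 24305 CPM in CKO and 24960.0 to 39826 CPM in flox over 7 genes, so the groups did not overlap, and the part of this difference in the values below was not tested. Fold changes below are given with all libraries, followed by the value without flox 1 and flox 4.

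Upstream sequences are shown for 4 genes: Acsl3, whose CKO and flox libraries did not overlap, Cpt1a, the entry enzyme of the carnitine shuttle, and Acaa1b and Pdk4, the pair that lay more than 4-fold under the next library in CKO 5. They are the 250 bases before the start in RefSeq, build GRCm38.p6, read 5′ to 3′ on the gene's strand. Capitals mark matches on either strand to the nuclear receptor motif AGGTCA or to the CCAAT box.
Acsl3 (chr1:78657575-78657824, plus strand): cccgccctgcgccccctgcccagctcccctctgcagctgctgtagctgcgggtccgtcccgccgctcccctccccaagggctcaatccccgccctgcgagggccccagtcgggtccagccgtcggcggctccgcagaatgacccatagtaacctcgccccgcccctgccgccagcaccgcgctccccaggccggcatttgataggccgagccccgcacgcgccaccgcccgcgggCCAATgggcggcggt
Cpt1a (chr19:3323051-3323300, plus strand): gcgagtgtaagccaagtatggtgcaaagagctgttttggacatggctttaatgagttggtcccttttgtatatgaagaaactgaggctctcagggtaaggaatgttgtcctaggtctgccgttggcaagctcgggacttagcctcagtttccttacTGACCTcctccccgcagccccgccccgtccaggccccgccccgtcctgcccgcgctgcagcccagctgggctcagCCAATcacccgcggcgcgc
Acaa1b (chr9:119157094-119157343, minus strand): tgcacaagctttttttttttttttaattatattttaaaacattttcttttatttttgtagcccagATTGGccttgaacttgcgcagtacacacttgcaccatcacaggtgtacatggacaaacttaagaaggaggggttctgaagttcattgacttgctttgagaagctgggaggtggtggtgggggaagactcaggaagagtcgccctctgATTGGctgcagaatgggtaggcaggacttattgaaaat
Pdk4 (chr6:5496279-5496528, minus strand): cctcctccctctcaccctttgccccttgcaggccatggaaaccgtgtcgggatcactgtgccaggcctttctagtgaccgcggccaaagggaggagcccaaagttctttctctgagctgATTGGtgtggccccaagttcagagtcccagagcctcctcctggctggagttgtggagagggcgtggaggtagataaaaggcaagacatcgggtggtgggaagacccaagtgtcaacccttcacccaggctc
A RefSeq window was at hand for 35 of the 40 genes, 37 windows in all. AGGTCA occurred in 5 of these 37 windows (13.5%; Acadm, Acadvl, Cd36, Cpt1a and Echs1), against 14% of 32851 windows of all genes. The E-box CACGTG was in 1 window, that of Slc16a1, against 6.02% of all windows. The direct repeat of that receptor motif with a spacer of 1 base, of which AGGTCA can be a part, was in 0 of 37 windows and 0.338% of all, and the cyclic AMP response element TGACGTCA was in 0 of 37 and 1.55% of all. CCAAT, added after the letters had been seen, was in 17 of 37 windows (45.9%), against 33.8% of all. These matches describe letters in short windows and say nothing of binding.

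Levels of different genes were compared on the authors' FPKM, whose adjustment for length is not described in the sources used here. These FPKM are not counts divided by a fixed length per gene. Between CKO 1 and flox 1, Acot1 went from 199 to 118 reads and from 5.83 to 5.9 FPKM. Acads went from 9929 to 12133 reads and from 326 to 355 FPKM. The order of genes below therefore holds for these FPKM only. Etfb, the beta subunit of the electron transfer flavoprotein, had the highest mean, at 699 ± 224 FPKM in CKO and 938 ± 401 FPKM in flox (SD, n = 5 each). Acads, the short-chain acyl-CoA dehydrogenase that oxidises butyryl-CoA, came next at 302 ± 62.8 FPKM in CKO and 319 ± 42.3 FPKM in flox. Hadh followed at 207 ± 25 FPKM in CKO and 157 ± 60.1 FPKM in flox, and Acadvl at 148 ± 19.7 FPKM in CKO and 159.9 ± 20.3 FPKM in flox. At the low end were Cd36 (0.584 ± 0.504 FPKM in CKO and 0.236 ± 0.177 FPKM in flox), Pdk4 (1.72 ± 0.968 FPKM in CKO and 1.3 ± 0.734 FPKM in flox), Acsl4 (2.27 ± 0.511 FPKM in CKO and 1.73 ± 0.781 FPKM in flox) and Acot2 (2.45 ± 0.866 FPKM in CKO and 2.16 ± 1.04 FPKM in flox). Within the acyl-CoA dehydrogenases the order Acads, Acadvl, Acadl, Acadm, Acadsb held in 10 of 10 libraries. The FPKM of Acads was 1.71 to 2.24 times that of Acadvl, and that of Acadl 1.04 to 1.64 times that of Acadm. Slc16a1 exceeded Slc5a8 in 10 of 10 libraries (1.2 to 2.07 times), and Bdh1 exceeded Oxct1 in 10 of 10 (1.4 to 2.23 times). Hadha and Hadhb, the subunits of one complex, lay close, with Hadha above Hadhb in 7 of 10 libraries (0.908 to 1.37 times).

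**Figure D1:**
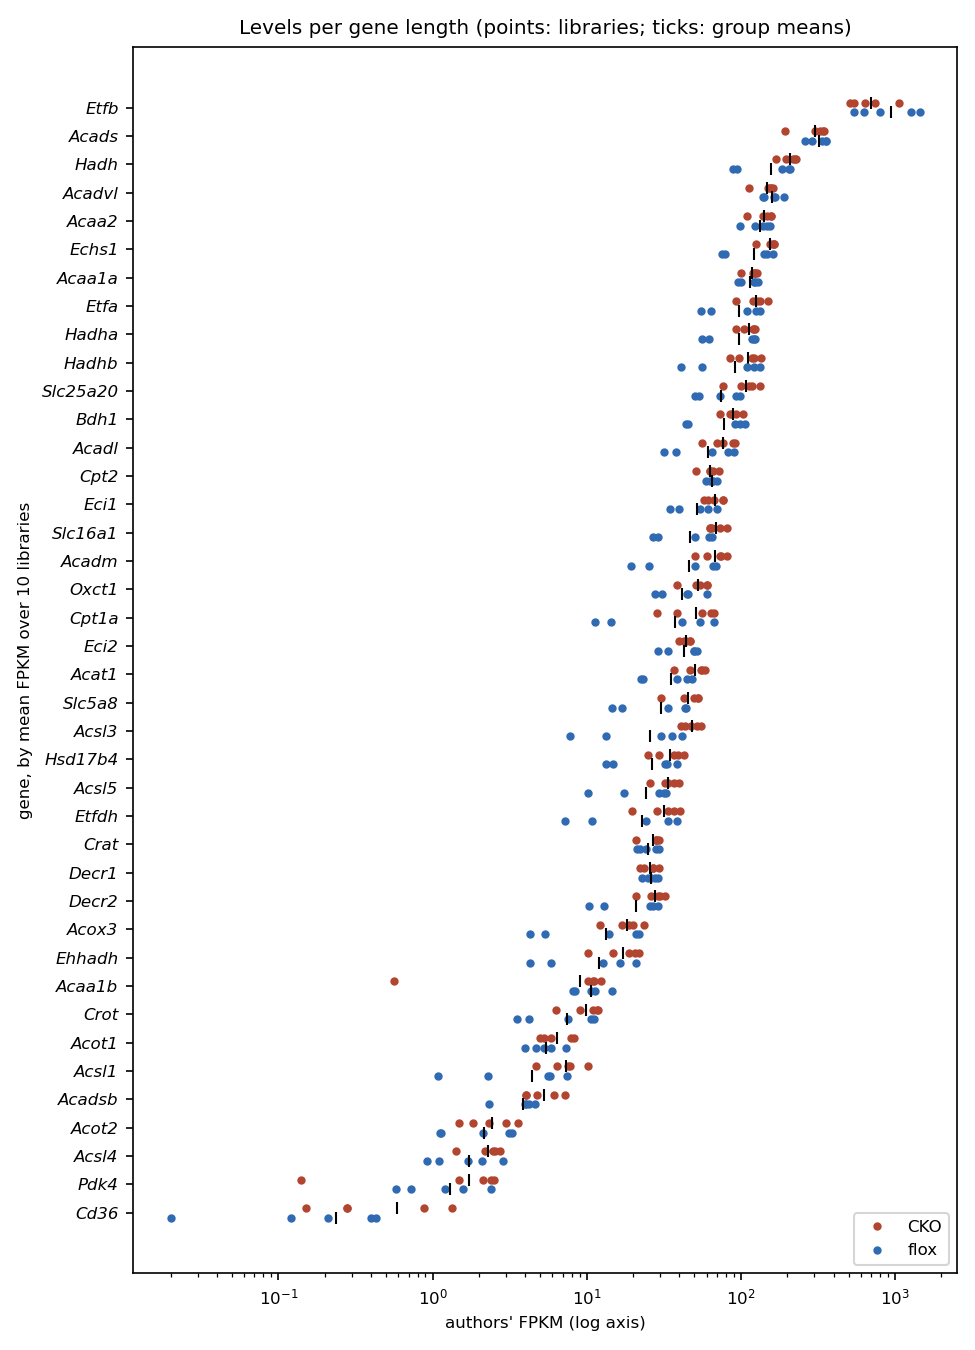
Authors' FPKM of the 40 genes on a log axis, with CKO points above flox points in each row, 1 point per library and a tick at each group mean. Etfb and Acads stand at the top and Pdk4 and Cd36 at the bottom, and the single CKO point far to the left in the Acaa1b and Pdk4 rows is CKO 5.

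By edgeR's quasi-likelihood test, 0 of 40 genes passed an adjusted p of 0.05 in CKO against flox, where 0% of all 14963 genes passed. The lowest adjusted p among the 40 was 0.365. DESeq2 also called 0 of the 40, where it called 1.21% of all genes with an adjusted p. At an unadjusted edgeR p under 0.05, 1 of 40 genes was higher in CKO (5.05% of all genes) and 4 of 40 were lower (7.91% of all genes). Limma voom called 0 of the 40 as well, and so did voom with quality weights and limma on log2(FPKM + 1). Log2 fold changes were positive for 22 genes and negative for 18, with a median of 0.050, against 0.0010 over all genes tested. The 95% interval lay within 1 log2 unit, a 2-fold difference, on both sides for 34 of the 40. The exceptions were Cd36, Acsl3, Acads, Etfb, Acaa1b and Pdk4. CKO values exceeded flox values without overlap in 1 of the 40 genes, Acsl3, where this held for 0.922% of all genes, and they lay below without overlap in 0 of 40, against 1.26% of all genes. On FPKM the median of all genes itself shifted to 0.30 on the log2 scale, and 34 of 40 were positive there, with a median of 0.40.

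Flox 1 and flox 4 differed from the other flox libraries in many of the 40 genes. In 17 of 40 genes both lay below flox 2, 3 and 5 (29.5% of all genes), in 11 both lay above (26.9% of all genes), and 12 were mixed. Over the 40 genes, Spearman's rho between the deviation of flox 1 and flox 4 from the other flox libraries and the CKO to flox log2 fold change was -0.82. Both quantities share the same flox libraries, so this rho is a description. Exon length was the merged length of all annotated exons of a gene, not that of a single transcript. Genes with more annotated exon sequence tended to lie lower in flox 1 and flox 4. The rho of exon length and the deviation of these libraries was -0.39 over the 40 genes and -0.38 over 14128 tested genes with a length. Without these 2 libraries 15 of the 40 fold changes took the other sign and 28 became smaller in size, and the median was -0.053, against 0.018 over all genes. In that comparison 1 of 40 genes, again Acsl3, was higher at an unadjusted p under 0.05 (3.34% of all genes) and 0 were lower (3.07% of all genes).

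**Figure D2:**
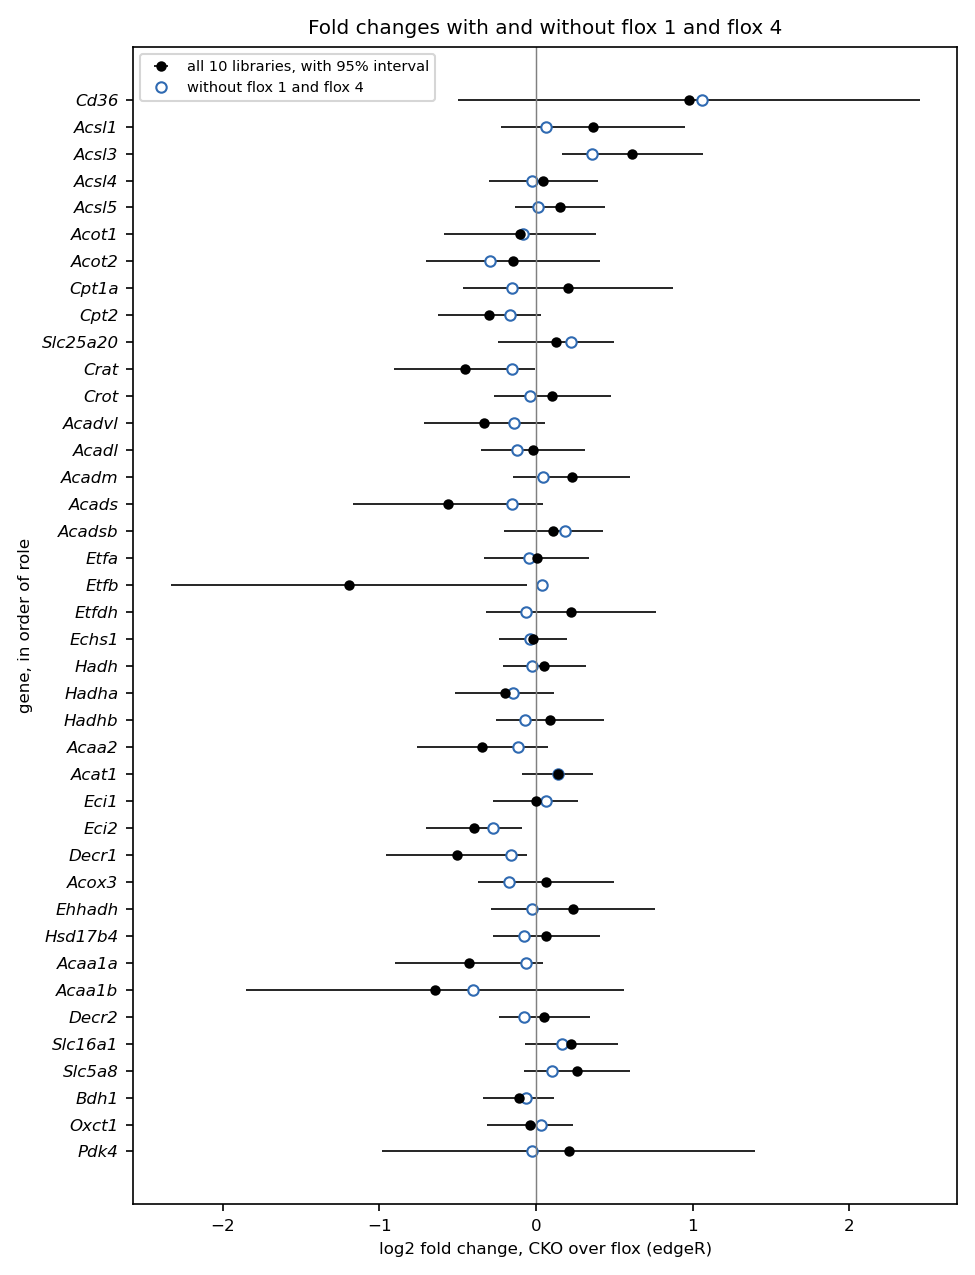
Log2 fold change of CKO over flox for each gene in order of role, with the 95% interval from all 10 libraries (filled) and the value without flox 1 and flox 4 (open). The filled point of Etfb at -1.20 moves to 0.040, and Acsl3 keeps a positive value, 0.62 and 0.36.

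**Figure D3:**
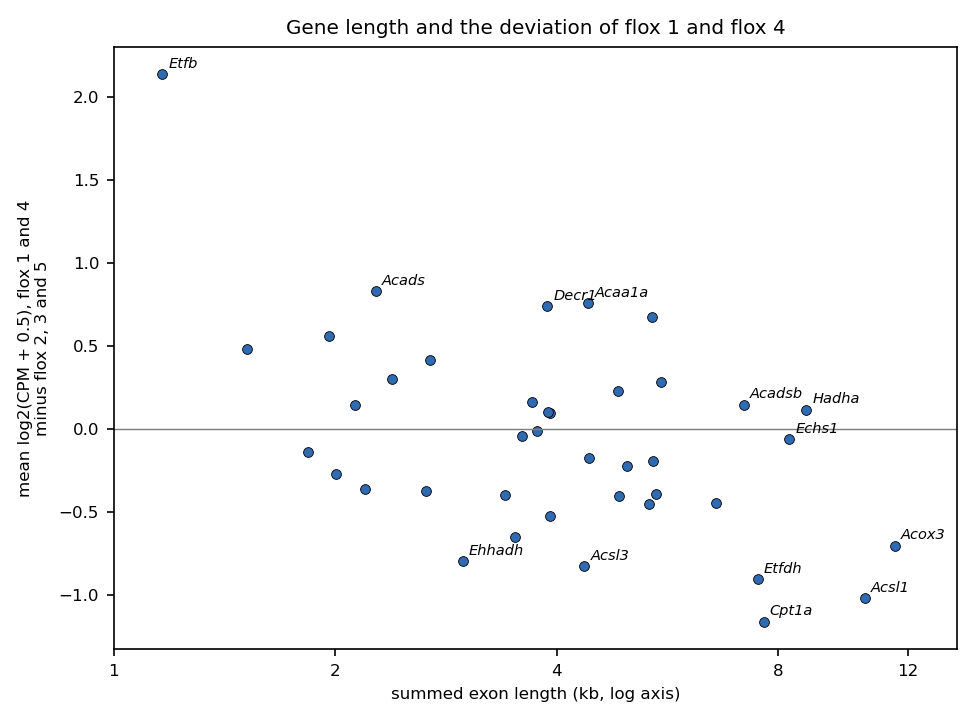
Merged length of all annotated exons of each gene on a log axis against the mean log2(CPM + 0.5) of flox 1 and 4 minus that of flox 2, 3 and 5. Etfb, with 1164 bases of exon, lies at 2.14, and Cpt1a, with 7642 bases, at -1.16.

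Fatty acid uptake and activation is the first step. The gene with the smallest p of the 40 was Acsl3 (ENSMUSG00000032883), a long-chain acyl-CoA synthetase of the endoplasmic reticulum and lipid droplets. Acsl3 stood at 115, 104, 113, 110.1 and 119 CPM in CKO 1 to 5, against 38.8, 96.9, 77.5, 62.4 and 89.8 CPM in flox 1 to 5. All 5 CKO libraries were above all 5 flox libraries, with flox 1 and flox 4 the lowest. Its log2 fold change was 0.62 ± 0.21 (SE; edgeR adjusted p = 0.365), with a 95% interval of 0.16 to 1.07 and an unadjusted p of 0.0119. Without flox 1 and flox 4 it was 0.36, and over all alternatives the adjusted p ran from 0.0803 to 0.998. The other synthetases had smaller fold changes. Acsl1, which serves oxidation and lipid storage, averaged 20.8 ± 4.19 CPM in CKO and 16.1 ± 6.07 CPM in flox (SD, n = 5 each) and had a log2 fold change of 0.36 that became 0.062 without the 2 libraries. Acsl5, a synthetase abundant in the intestine, averaged 101 ± 7.55 CPM in CKO and 90.6 ± 15.4 CPM in flox and moved likewise, at 0.15 and 0.014. Acsl4, which prefers arachidonic acid, averaged 9.03 ± 1.3 CPM in CKO and 8.73 ± 1.45 CPM in flox (0.047, or -0.027 without them).

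Cd36, a fatty acid receptor of the cell surface, had the lowest FPKM of the 40. It had 14, 8, 50, 12 and 67 reads in CKO 1 to 5, against 15, 12, 22, 1 and 6 reads in flox 1 to 5, which came to 0.613, 0.29, 1.73, 0.658 and 2.37 CPM in CKO 1 to 5, against 1.19, 0.426, 0.98, 0.0756 and 0.26 CPM in flox 1 to 5. CKO 3 and CKO 5 were highest, and the groups overlapped. The log2 fold change was 0.98 ± 0.67 (SE; edgeR adjusted p = 0.489), 1.06 without flox 1 and flox 4 and 0.52 without CKO 5. Cd36 is also made by macrophages, endothelium and adipocytes. The 7 fibroblast markers all had positive log2 fold changes, and their summed levels were 50.02, 55.8, 135, 132 and 207 CPM in CKO 1 to 5, against 54.9, 64.8, 71.3, 18.1 and 40.2 CPM in flox 1 to 5. Summed macrophage and dendritic cell markers were 89.3 CPM in CKO 5 and 39.9 to 59.7 CPM in the other 9 libraries. Of the adipocyte list, 4 of 6 genes with an ID (Adipoq, Plin1, Fabp4 and Cfd) were under 1 CPM in every library, and the summed level was 7.92 to 19.8 CPM in CKO and 18.6 to 23.2 CPM in flox. This sum came mostly from Cidec, whose groups overlapped, and Lipe, whose groups did not. Lipe ran from 6.65 to 11.1 CPM in CKO and from 12.8 to 15.5 CPM in flox. In endothelium the sum was 5.58 to 8.46 CPM in CKO and 8.52 to 12.8 CPM in flox. Of that list only Vwf had groups that did not overlap, at 3.02 to 4.17 CPM in CKO and 5.89 to 7.4 CPM in flox. Pecam1 and Egfl7 overlapped and had log2 fold changes of 0.16 and -0.54. The remaining 3 of 6 genes were under 1 CPM in every library, so this list did not move together. Muscle markers summed to 2.28 to 4.33 CPM in CKO and 2.08 to 4.59 CPM in flox. No marker of these lists was at 0 in all libraries, and the part of these cells in the Cd36 values was not tested. In bulk tissue, fewer cells of a type and less RNA per cell cannot be told apart.

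**Figure D4:**
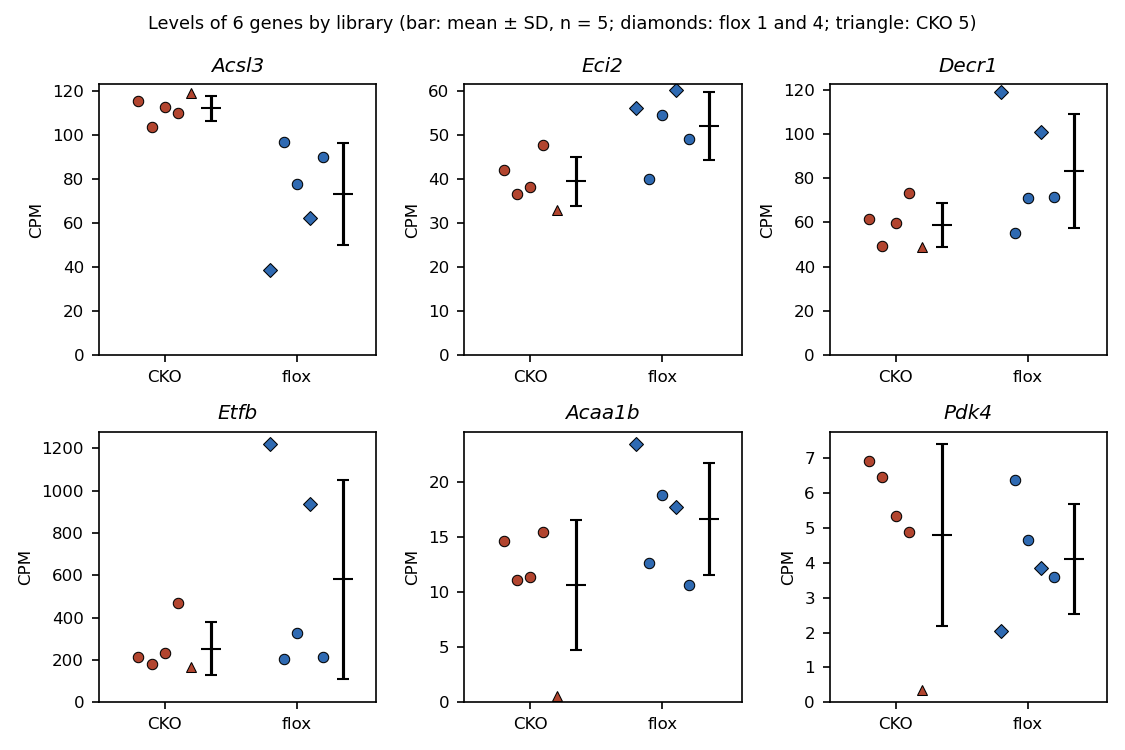
CPM of 6 genes by library, CKO at the left of each panel and flox at the right, with mean ± SD over 5 libraries, flox 1 and flox 4 as diamonds and CKO 5 as a triangle. Acsl3 shows no overlap, the flox spread of Etfb comes from 2 libraries, and CKO 5 lies near 0 for Acaa1b and Pdk4.

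The carnitine shuttle carries long chains into mitochondria. Cpt1a (ENSMUSG00000024900), the liver-type carnitine palmitoyltransferase and its rate-setting enzyme, stood at 236, 219, 177, 119 and 122 CPM in CKO 1 to 5, against 77.8, 221, 160.0, 95 and 204 CPM in flox 1 to 5. Flox 1 and flox 4 were lowest, followed by CKO 4 and CKO 5. The log2 fold change of Cpt1a was 0.20 ± 0.31 (SE; edgeR adjusted p = 0.74), and -0.15 without flox 1 and flox 4. Cpt2 (ENSMUSG00000028607), which re-forms the acyl-CoA on the inner side, stood at 112, 116, 101, 129.9 and 79.9 CPM in CKO 1 to 5, against 146, 106, 133, 152 and 125 CPM in flox 1 to 5. Here CKO 5 was lowest and flox 1 and flox 4 highest, whereas Cpt1a was lowest in those 2 flox libraries. Cpt2 had a log2 fold change of -0.30 ± 0.15 (SE; edgeR adjusted p = 0.403), or -0.16 without them. Slc25a20, the carnitine and acylcarnitine carrier between those enzymes, averaged 139 ± 31 CPM in CKO and 127 ± 15.7 CPM in flox (SD, n = 5 each), with a log2 fold change of 0.13, or 0.23 without them.

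Crat (ENSMUSG00000026853), the carnitine acetyltransferase that buffers acetyl-CoA, stood at 71.8, 73.8, 59.5, 84.1 and 51.8 CPM in CKO 1 to 5, against 119, 58.3, 91, 121 and 79.1 CPM in flox 1 to 5. Its highest values were again flox 1 and flox 4. Flox 2 and flox 5 lay within the CKO range and flox 3 just above it. Crat had a log2 fold change of -0.46 ± 0.21 (SE; edgeR adjusted p = 0.382), which became -0.15 without these libraries. Crot, the peroxisomal octanoyltransferase that hands shortened chains to mitochondria, averaged 22.7 ± 4.25 CPM in CKO and 21.1 ± 4.15 CPM in flox (SD, n = 5 each), at a log2 fold change of 0.10 or -0.039. The thioesterases that split acyl-CoA in cytosol (Acot1) and mitochondria (Acot2) had log2 fold changes of -0.10 and -0.15, or -0.082 and -0.29 without flox 1 and flox 4. Acot1 averaged 7.66 ± 1.33 CPM in CKO and 8.22 ± 2.51 CPM in flox (SD, n = 5 each). Acot2 averaged 3.97 ± 1.24 CPM in CKO and 4.38 ± 0.989 CPM in flox. Acot1 and Acot2 are close copies, so reads may be split between them, and shared reads were not measured.

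The acyl-CoA dehydrogenases make the first double bond, each for its own chain length. Acads (ENSMUSG00000029545) stood at 435, 443, 359, 556 and 232 CPM in CKO 1 to 5, against 959.8, 448, 496, 673 and 416 CPM in flox 1 to 5. CKO 5 was lowest, and flox 1 and flox 4 were highest. Its log2 fold change was -0.56 ± 0.28 (SE; edgeR adjusted p = 0.397), with an interval of -1.17 to 0.044, and -0.15 without flox 1 and flox 4. Acadvl (ENSMUSG00000018574), for very long chains, stood at 248, 244, 204, 279.7 and 162 CPM in CKO 1 to 5, against 357, 238, 281, 315 and 238 CPM in flox 1 to 5. CKO 5 was again lowest and flox 1 highest. The log2 fold change of Acadvl was -0.33 ± 0.18 (SE; edgeR adjusted p = 0.414), or -0.14 without those flox libraries. Acadm, the medium-chain enzyme, had the opposite sign, with a log2 fold change of 0.23, or 0.045 without the 2 libraries, and averaged 94.8 ± 16.1 CPM in CKO and 80.9 ± 17.7 CPM in flox (SD, n = 5 each). Acadl, for long chains, averaged 106 ± 18.3 CPM in CKO and 107 ± 17.7 CPM in flox (-0.019, or -0.12 without them). Acadsb, which acts on short branched chains from isoleucine, averaged 12.6 ± 1.9 CPM in CKO and 11.7 ± 1.47 CPM in flox (0.11, or 0.18).

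Electrons from these dehydrogenases pass to the electron transfer flavoprotein, made of Etfa and Etfb, and then to its ubiquinone oxidoreductase, Etfdh. Etfb (ENSMUSG00000004610) stood at 213, 183, 232, 471 and 169 CPM in CKO 1 to 5, against 1222, 206, 328, 938 and 212 CPM in flox 1 to 5. Flox 1 and flox 4 held 938 to 1222 CPM, CKO 4 was next, and the other 7 libraries lay between 169 and 328 CPM. The 3 libraries with the highest Etfb were also those with the highest mitochondrial shares, at 26.5%, 29.3% and 11.8%. Etfb had the largest log2 fold change of the 40 in size, -1.20 ± 0.52 (SE; edgeR adjusted p = 0.38), with an interval of -2.33 to -0.058. It was 0.040 without flox 1 and flox 4 and 0.067 in the fit that takes each library's mitochondrial share into account. Its partner Etfa, in a fixed complex with Etfb, averaged 117 ± 23.7 CPM in CKO and 116 ± 11.5 CPM in flox (SD, n = 5 each), with a fold change on the log2 scale of 0.0034, or -0.045 without these flox libraries. Etfdh averaged 56.6 ± 12.8 CPM in CKO and 48.4 ± 17.1 CPM in flox and had a log2 fold change of 0.22, or -0.067 without them. In flox 1 and flox 4 Etfb had its highest CPM of the 10 libraries and Etfdh its lowest.

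The later steps of the mitochondrial spiral hydrate, oxidise and cleave the chain. Hadh (ENSMUSG00000027984), the short-chain hydroxyacyl-CoA dehydrogenase, stood at 292, 276, 265, 258 and 229.7 CPM in CKO 1 to 5, against 230.1, 251, 267, 232 and 292 CPM in flox 1 to 5. The CKO and flox ranges all but coincided, and the log2 fold change was 0.054 ± 0.12 (SE; edgeR adjusted p = 0.832), with an interval of -0.21 to 0.32, and -0.025 without flox 1 and flox 4. Echs1, the short-chain enoyl-CoA hydratase, averaged 167 ± 9.55 CPM in CKO and 169 ± 7.47 CPM in flox (SD, n = 5 each), and its log2 fold change of -0.021 had the narrowest interval of these enzymes, -0.24 to 0.20, and was -0.038 without them. Hadha and Hadhb, the trifunctional protein for long chains, had log2 fold changes of -0.20 and 0.089, or -0.15 and -0.069. Hadha averaged 303 ± 49.1 CPM in CKO and 348 ± 26.8 CPM in flox (SD, n = 5 each). Hadhb averaged 166 ± 26.1 CPM in CKO and 156 ± 28.2 CPM in flox. Acat1, a thiolase that also acts in ketone metabolism, averaged 132 ± 11.6 CPM in CKO and 120.2 ± 6.42 CPM in flox, and its log2 fold change was 0.14 with all libraries and 0.14 without flox 1 and flox 4.

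Acaa2 (ENSMUSG00000036880), the other mitochondrial thiolase, stood at 156, 142, 149.6, 195 and 105 CPM in CKO 1 to 5, against 259, 147, 184, 199.7 and 159 CPM in flox 1 to 5. CKO 5 was lowest and flox 1 highest, and the log2 fold change was -0.34 ± 0.19 (SE; edgeR adjusted p = 0.428), or -0.12 without the 2 flox libraries. Among auxiliary enzymes for unsaturated chains, Eci2 (ENSMUSG00000021417), an enoyl-CoA isomerase of peroxisomes and mitochondria, had the second smallest p of the 40. Eci2 stood at 41.9, 36.6, 38.2, 47.7 and 32.9 CPM in CKO 1 to 5, against 56, 40.1, 54.5, 60.1 and 49.1 CPM in flox 1 to 5. Flox 2 lay within the CKO range, the other 4 flox libraries above it. Its log2 fold change was -0.40 ± 0.14 (SE; edgeR adjusted p = 0.365), with an unadjusted p of 0.0153, and -0.27 without flox 1 and flox 4 (unadjusted p = 0.0959). Decr1 (ENSMUSG00000028223), the mitochondrial dienoyl-CoA reductase, stood at 61.7, 49.5, 59.9, 73.3 and 49 CPM in CKO 1 to 5, against 119, 55, 70.9, 101 and 71.7 CPM in flox 1 to 5. Only flox 1 and flox 4 exceeded every CKO library, and the log2 fold change was -0.51 ± 0.21 (SE; edgeR adjusted p = 0.374), or -0.16 without them. Eci1, the mitochondrial isomerase, averaged 47.1 ± 6.85 CPM in CKO and 47.3 ± 3.73 CPM in flox (SD, n = 5 each), at -0.0031, or 0.063.

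In peroxisomes, the thiolase Acaa1a (ENSMUSG00000036138) stood at 153, 155, 138, 181 and 114 CPM in CKO 1 to 5, against 304, 154, 174, 226 and 139 CPM in flox 1 to 5. The top values were flox 1 and flox 4, the lowest CKO 5. The log2 fold change of Acaa1a was -0.43 ± 0.22 (SE; edgeR adjusted p = 0.403), or -0.063 without flox 1 and flox 4. Its close copy Acaa1b (ENSMUSG00000010651), a target of the fatty acid receptor PPAR alpha in mouse liver, stood at 14.6, 11.2, 11.4, 15.5 and 0.601 CPM in CKO 1 to 5, against 23.4, 12.6, 18.9, 17.8 and 10.7 CPM in flox 1 to 5. CKO 5 held 17 reads of Acaa1b, against 235 or more in each other library. The log2 fold change was -0.65 ± 0.55 (SE; edgeR adjusted p = 0.565), -0.40 without flox 1 and flox 4, -0.34 without CKO 5 and -0.090 without flox 1, flox 4 and CKO 5. Reads may be split between Acaa1a and Acaa1b, which was not measured. The other peroxisomal genes had log2 fold changes within 0.24 of 0, and below 0 without flox 1 and flox 4 (second value). Ehhadh, the bifunctional enzyme of straight chains, averaged 39.3 ± 9.65 CPM in CKO and 33.3 ± 10.8 CPM in flox (0.24, then -0.026), and Hsd17b4, that of branched and very long chains, 70.0 ± 13.5 CPM in CKO and 66.8 ± 10.02 CPM in flox (0.066, then -0.075). Acox3, a branched-chain acyl-CoA oxidase, averaged 36.6 ± 6.01 CPM in CKO and 35 ± 10.4 CPM in flox (0.064, then -0.17), and Decr2, the peroxisomal dienoyl-CoA reductase, 43.5 ± 4.4 CPM in CKO and 41.9 ± 6.8 CPM in flox (0.054, then -0.078).

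The butyrate carriers had positive log2 fold changes with all libraries and without flox 1 and flox 4. Slc16a1 (ENSMUSG00000032902), the proton-coupled monocarboxylate transporter, stood at 292, 228, 238, 270.0 and 203 CPM in CKO 1 to 5, against 191, 212, 201, 199 and 249 CPM in flox 1 to 5. The highest values were CKO 1 and CKO 4, and the groups overlapped. Its log2 fold change was 0.23 ± 0.14 (SE; edgeR adjusted p = 0.446), with an interval of -0.070 to 0.52, and 0.16 without the 2 libraries. Slc5a8 (ENSMUSG00000020062), the sodium-coupled carrier of the luminal membrane, stood at 218, 184, 209, 159 and 207 CPM in CKO 1 to 5, against 125, 180.1, 164, 142 and 205 CPM in flox 1 to 5. Flox 1 and flox 4 were lowest, CKO 4 next. The log2 fold change of Slc5a8 was 0.26 ± 0.15 (SE; edgeR adjusted p = 0.444), or 0.10 without them. Their adjusted p stayed above 0.05 in every alternative run.

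Ketone bodies are made and used by a short pathway. Bdh1 (ENSMUSG00000046598), which interconverts acetoacetate and hydroxybutyrate, stood at 194, 199.5, 184, 186 and 169 CPM in CKO 1 to 5, against 219, 197, 199, 202 and 191 CPM in flox 1 to 5. Values in CKO lay within or below the flox range, and the log2 fold change was -0.11 ± 0.10 (SE; edgeR adjusted p = 0.596), with an interval of -0.34 to 0.12, and -0.062 without flox 1 and flox 4. Oxct1 (ENSMUSG00000022186), the transferase that lets cells burn ketone bodies, stood at 144, 149.8, 154, 129 and 154 CPM in CKO 1 to 5, against 169, 119, 142, 149 and 169.9 CPM in flox 1 to 5. The flox libraries enclosed the CKO range, and the log2 fold change was -0.037 ± 0.13 (SE; edgeR adjusted p = 0.893), with an interval of -0.31 to 0.24, and 0.031 without them. Both intervals, from all libraries, lay within a 1.5-fold difference in either direction. They were not adjusted for the number of genes and reflect the spread between libraries, which may be technical.

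Pdk4 (ENSMUSG00000019577) codes for a kinase that turns off pyruvate dehydrogenase when fat is burned. It stood at 6.91, 6.44, 5.33, 4.88 and 0.354 CPM in CKO 1 to 5, against 2.06, 6.36, 4.63, 3.85 and 3.59 CPM in flox 1 to 5, with 10 reads in CKO 5. The other 4 CKO libraries lay between 4.88 and 6.91 CPM, within or just above the flox range. Its log2 fold change was 0.21 ± 0.55 (SE; edgeR adjusted p = 0.857), with an interval of -0.98 to 1.40, 0.51 without CKO 5, and -0.024 without flox 1 and flox 4. Across the 40 genes, CKO 5 held the lowest CPM of all 10 libraries in 19 (14.4% of all genes), and flox 1 in 15 (25.9% of all genes). CKO 1 held the highest in 15 (10.4% of all genes).

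**Figure D5:**
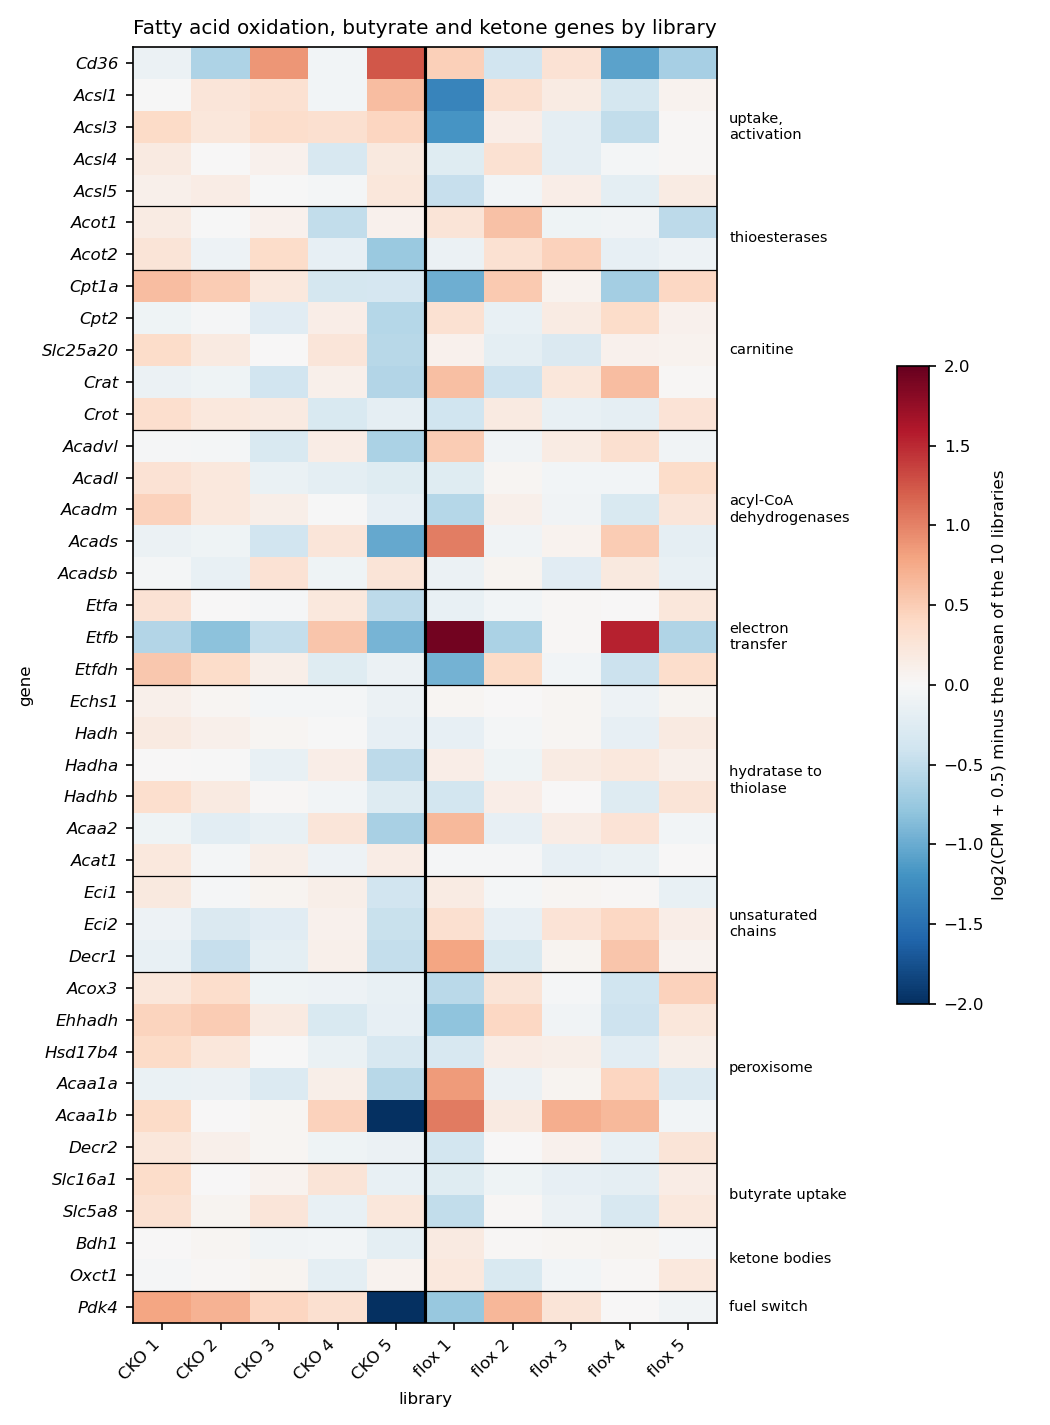
Log2(CPM + 0.5) of each gene minus its mean over the 10 libraries, with CKO columns left of flox columns, genes grouped by role and colour limits at 2 units on either side. Flox 1 and flox 4 share a pattern (Etfb high, Cpt1a and Etfdh low), and the CKO 5 column is blue for most oxidation genes, with Acaa1b and Pdk4 beyond the lower limit.

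Neighbouring pathways were read from lists of their own, and their counts at an unadjusted edgeR p under 0.05 stand against 5.05% higher and 7.91% lower over all genes. The second of paired values leaves out flox 1 and flox 4. Of 37 tested further genes of fatty acid oxidation and ketone metabolism, 9 had positive and 28 negative log2 fold changes (median -0.069), or 14 and 23 without flox 1 and flox 4, with 0 past the threshold by edgeR and by DESeq2 and 4, all lower, at an unadjusted p under 0.05. The 3 with the smallest p were Acsf3, a mitochondrial synthetase for malonate, at -0.55 and -0.26, Acot11, a long-chain thioesterase, at -0.32 and -0.28, and Acox2, an oxidase of bile acid side chains, at -1.05 and -1.02, from a level of 0.642 ± 0.334 CPM in CKO and 1.32 ± 0.338 CPM in flox (SD, n = 5 each). Of 17 tested genes of monocarboxylate transport and pyruvate control, 10 were positive and 7 negative in both fits (median 0.13), 0 passed by edgeR, and 2 lay on each side at an unadjusted p under 0.05. Those were Mpc1 (0.26 and 0.19) and Pdp2 (0.59 and 0.65), higher, and Pdk3 and Ffar2 (-1.48 and -0.54), lower. DESeq2 called Pdk3, another pyruvate dehydrogenase kinase, with an adjusted p of 0.0269, which averaged 24.7 ± 3.11 CPM in CKO and 36.9 ± 5.83 CPM in flox (SD, n = 5 each) and had a log2 fold change of -0.58 ± 0.14 (SE; edgeR adjusted p = 0.283), and -0.48 without flox 1 and flox 4. Of 16 known PPAR target genes matched by symbol and tested, 8 are also among the 40. Among these 16, 8 were positive and 8 negative (median -0.011, with 6 and 10 in the second fit). Of them, 0 had an unadjusted p under 0.05 by edgeR and 0 were called by DESeq2. The smallest p among the 16 were those of Ucp2 (-0.37 and -0.17), Creb3l3 (0.80 and 1.004) and Cpt2. Eci2, listed under its older symbol Peci, was not matched and is outside these counts. It was lower, at -0.40 and -0.27, with an unadjusted edgeR p of 0.0153. In the tricarboxylic acid cycle list 10 of 20 were positive and 10 negative (median -0.0030; 8 and 12 in the second fit), with 0 past by edgeR and by DESeq2 and 3 lower at an unadjusted p under 0.05, Idh3g (-0.26 and -0.15), Ogdh (-0.34 and -0.21) and Mdh2 (-0.48 and -0.16). The median over all tested genes was 0.0010.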

How the data were processed

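RNA of colon crypts was sequenced after mRNA enrichment, per the labels' protocols, and the submitters' processing notes name fastp and HISAT2. Which genome build, annotation, counter and strand mode were used is not given in the sources used here. Deposited were raw counts per Ensembl ID and the authors' FPKM, in tables with 1 column per library. Symbols and exon lengths came from GENCODE M21, matched by ID for 26095 of 33632 IDs, and promoters from RefSeq.

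Counts were tested with edgeR 4.0.16 in R 4.3.3 (filterByExpr, TMM scaling, robust quasi-likelihood fit, CKO against flox, Benjamini-Hochberg over 14963 genes, threshold 0.05). The fits were tested on simulated data with known answers. Alternatives used DESeq2 1.42.0, limma 3.58.1, other scalings and filters, a replicate block, the mitochondrial share as a covariate and fewer libraries. No pair of libraries agreed within sampling noise (lowest chi-square per degree of freedom 30.0).

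The members, lists and tests were chosen with earlier results of these data known. Values per library are given for the 12 genes with the smallest p, the 4 with the highest FPKM, Cpt1a, Slc16a1, Slc5a8, Bdh1, Oxct1 and any gene whose groups did not overlap. Acaa1b, Pdk4 and Cd36 were added after their values were seen.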

Additional observations from a re-analysis of the deposited data

Results flagged for a closer look

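Etfb stood at 471 CPM in CKO 4, and at 169 to 232 CPM in the other 4 CKO libraries. Its gap to the next CKO library was 0.791 of the range of the group, above the critical value of 0.71 for 5 libraries. It was the 1 library that lay this far from its group in 80 groups examined (40 genes in CKO and in flox), and chance alone marks about 1 group in 20. The rule was applied to CPM, which cannot fall below 0, so low values are harder to mark than high ones. It did not mark CKO 5 for Acaa1b (0.601 CPM, against 11.2 to 15.5 CPM in the other CKO libraries). Nor did it mark CKO 5 for Pdk4 (0.354 CPM, against 4.88 to 6.91 CPM). The mitochondrial share of CKO 4, 11.8%, was the highest of the CKO libraries, and its part in the Etfb value was not tested.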

How the results depend on the processing

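The count of the 40 genes past the threshold was 0 in every alternative run. Over all genes the count was 178 with DESeq2, 44 with voom with quality weights, 3 without a filter, 1 with the mitochondrial share as a covariate and 0 to 2 when single libraries were left out. It was 71 with DESeq2 without flox 1 and flox 4, and 1 without flox 1, flox 4 and CKO 5, both chosen after seeing the data. The median log2 fold change of the 40 was 0.40 on log2(FPKM + 1), 0.43 on log2(FPKM + 0.1), where the median of all genes was 0.41, -0.075 when the mitochondrial share was a covariate, and -0.013 to 0.088 with single libraries left out. The cause of these moves was not tested. Few libraries and the wide spread of flox 1 and flox 4 limit precision, and Cd36 and Pdk4 rest on few reads.

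Signs of single genes, none of them past the threshold, changed as follows, with log2 fold changes in brackets. With RLE scaling, the sign changed for Etfa (-0.0043). Under upper quartile scaling it changed for Acadl (0.0089), Echs1 (0.011), Eci1 (0.028) and Oxct1 (0.0015). With DESeq2, the sign changed for Etfa (-0.0046). Under limma voom it changed for Etfa (-0.010) and Pdk4 (-0.34). With voom with quality weights, the sign changed for Acot1 (0.065), Acadl (0.0064), Etfa (-0.015), Eci1 (0.0060), Hsd17b4 (-0.0041), Decr2 (-0.0012), Oxct1 (0.029) and Pdk4 (-0.23). Under limma on log2(FPKM + 1) it changed for Acot1 (0.21), Acot2 (0.16), Crat (0.11), Acadl (0.41), Echs1 (0.41), Hadha (0.30), Acaa2 (0.10), Eci1 (0.42), Eci2 (0.072), Acaa1a (0.065), Bdh1 (0.28) and Oxct1 (0.37). With limma on log2(FPKM + 0.1), the sign changed for Acot1 (0.25), Acot2 (0.24), Crat (0.12), Acadl (0.41), Echs1 (0.42), Hadha (0.30), Acaa2 (0.10), Eci1 (0.43), Eci2 (0.074), Acaa1a (0.066), Bdh1 (0.29) and Oxct1 (0.38). Under no filter on low counts it changed for Acadl (0.0008), Echs1 (0.0014) and Eci1 (0.022). With the mitochondrial share as a covariate, the sign changed for Acsl4 (-0.079), Cpt1a (-0.20), Crot (-0.076), Etfa (-0.012), Etfb (0.067), Etfdh (-0.098), Hadh (-0.026), Hadhb (-0.075), Eci1 (0.073), Acox3 (-0.19), Ehhadh (-0.075), Hsd17b4 (-0.087), Decr2 (-0.083) and Oxct1 (0.0096). Under the omission of flox 1 and flox 4 it changed for Acsl4 (-0.027), Cpt1a (-0.15), Crot (-0.039), Etfa (-0.045), Etfb (0.040), Etfdh (-0.067), Hadh (-0.025), Hadhb (-0.069), Eci1 (0.063), Acox3 (-0.17), Ehhadh (-0.026), Hsd17b4 (-0.075), Decr2 (-0.078), Oxct1 (0.031) and Pdk4 (-0.024). With DESeq2 and the omission of flox 1 and flox 4, the sign changed for Acsl4 (-0.033), Cpt1a (-0.16), Crot (-0.044), Etfa (-0.049), Etfb (0.035), Etfdh (-0.071), Hadh (-0.030), Hadhb (-0.073), Eci1 (0.058), Acox3 (-0.18), Ehhadh (-0.031), Hsd17b4 (-0.079), Decr2 (-0.083), Oxct1 (0.025) and Pdk4 (-0.021). Under the omission of flox 1, flox 4 and CKO 5 it changed for Acsl1 (-0.057), Acsl4 (-0.074), Acsl5 (-0.024), Cpt1a (-0.049), Etfb (0.16), Etfdh (-0.0065), Hadhb (-0.0005), Eci1 (0.14), Acox3 (-0.13), Acaa1a (0.017), Decr2 (-0.042) and Oxct1 (0.0097). When single libraries were left out, the log2 fold changes that crossed 0 ran from -0.0076 to 0.15 for Acsl4, -0.23 to 0.079 for Acot1, -0.28 to 0.0048 for Acot2, -0.097 to 0.083 for Acadl, -0.074 to 0.12 for Etfa, -0.049 to 0.0054 for Echs1, -0.053 to 0.082 for Eci1, -0.045 to 0.21 for Acox3, -0.028 to 0.15 for Hsd17b4, -0.022 to 0.13 for Decr2 and -0.11 to 0.013 for Oxct1. The fit without robust estimation changed no sign, nor did a minimum of 1 CPM in 5 libraries.

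Same-numbered libraries had deviations from their group means correlated at -0.30, 0.28, 0.090, 0.40 and -0.057 for numbers 1 to 5. Libraries with different numbers were not compared, so these values cannot decide whether the shared numbers pair the libraries. With a replicate block, edgeR called 0 of the 40 and 0 of all genes, and 7 of the 40 had an unadjusted p under 0.05, as did 1986 of all 14963 genes. The sign changed under the block for Etfa (-0.016) and Pdk4 (-0.038).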

Other observations

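Car1, a carbonic anhydrase of colonocytes named after its values were seen, had 481 CPM in CKO 5 and 2814 to 6872 CPM in the other CKO libraries, against 3966 to 5774 CPM in flox. Of the 10 colonocyte markers, 6 were at their lowest of all libraries in CKO 5, Car1 among them, and 2 at their highest. Slc26a3, a chloride and bicarbonate exchanger, had 377 CPM there, and the transporter Slc37a2 had 114 CPM, so the list did not move together.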
